A study of Mus musculus with 60 samples.

Results

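The comparison described here is the late phase of the move into 2i in mouse embryonic stem cells that lack Ezh2: 3 libraries collected after 96 h of 2i against 3 collected after 48 h. These are 6 of the 60 libraries of the series, chosen by their column labels (line, time and replicate) and by no measured value. The series sequenced polyadenylated RNA from the wild-type embryonic stem cell lines 1A and V19 and from the Eed and Ezh2 knockouts of 1A after 0, 12, 24, 48 and 96 h of 2i, with 3 biological replicates for each of the 20 groups. The cells were grown in serum with LIF throughout, and for the timed samples the medium also held CHIR99021 at 3 µM and PD0325901 at 1 µM, renewed every day. The Ezh2 knockout is 1 line, made with Cas9 in the 1A background and carrying a loss-of-function mutation, so the mutation and the history of that line cannot be told apart. The Eed knockout is likewise 1 line. The groups used for comparison were 1A wild type and Eed knockout at 48 and 96 h, and the Ezh2 knockout itself at 0 and 24 h. The labels do not say whether replicates were separate thaws or parallel dishes, so p-values measure the spread between these samples.

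Ezh2 is the main catalytic subunit of Polycomb repressive complex 2 (PRC2), which methylates histone H3 at lysine 27 and keeps developmental genes silent. Eed is the subunit that binds this mark and is needed for the complex as a whole, whereas Ezh1 can replace Ezh2 in part. 2i combines an inhibitor of the kinase MEK, which shuts off ERK signalling, with an inhibitor of GSK3, which stabilises beta-catenin. In embryonic stem cells it favours the naive state, with high levels of naive transcription factors, loss of DNA methylation and low levels of ERK target genes.

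The 6 libraries held 5292505 to 9153021 counts, with a median of 5870526, and 19629 to 21558 genes with at least 1 count. Mitochondrial genes took 1.79 to 2.17% of counts at 48 h and 1.18 to 1.46% at 96 h, without overlap, and the part of this in the results was not tested. One library at 96 h, replicate 1, had a summed level of cytosolic ribosomal protein genes of 43007 counts per 1000000 (CPM), against 34052 and 35268 CPM in replicates 2 and 3 and 41586 to 43758 CPM at 48 h. Markers of embryonic stem cells (Pou5f1, Sox2, Nanog, Zfp42, Sall4 and Esrrb) summed to 4970 to 5065 CPM at 48 h and 4808 to 5031 CPM at 96 h, so the labelled cell type carried its defining markers at both times. Fibroblast and feeder markers summed to 6.95 to 8.41 CPM at 48 h and 10.3 to 12.4 CPM at 96 h, with Dcn at 0 at both times and Lum at 0 at 48 h.

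The targeted gene was read first. Ezh2 measured 17.0, 15.4 and 15.5 CPM at 48 h and 17.0, 18.3 and 16.3 CPM at 96 h in the knockout, against 228, 249.6 and 267 CPM at 48 h and 229, 220.1 and 216 CPM at 96 h in 1A wild type, so the knockout libraries all lay below every wild-type library. Within the knockout no difference between the times was called (log2 fold change 0.10, SE 0.097, adjusted p = 0.577). Eed, by contrast, measured 212, 216 and 206 CPM at 48 h and 315, 293 and 280.2 CPM at 96 h, and rose (log2 fold change 0.49, SE 0.10, adjusted p = 2.63e-04). Suz12, a core subunit beside them, measured 303, 298 and 300.1 CPM at 48 h and 274, 295 and 280.1 CPM at 96 h with no call (log2 fold change -0.086, SE 0.11, adjusted p = 0.621), and Ezh1, the paralogous methyltransferase, measured 22.9, 23.9 and 30.01 CPM at 48 h and 23.3, 23.5 and 26.1 CPM at 96 h, also with no call (adjusted p = 0.769). The call on Eed was lost in a limma test on the authors' second deposited table, which holds scores adjusted by RUV, a method that removes unwanted variation. Of 15 genes for PRC2 subunits and partners tested, 3 rose and 1 fell, against 24.2% of all genes called in either direction. Phf1, an accessory subunit, measured 4.75, 5.68 and 4.59 CPM at 48 h and 10.7, 10.7 and 7.64 CPM at 96 h and was the largest of the 3 (log2 fold change 0.90, SE 0.21, adjusted p = 8.53e-04).

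In the Ezh2 knockout 3649 of 15083 genes tested (24.2%) differed between 96 h and 48 h at an adjusted p under 0.05 by edgeR's quasi-likelihood test. Of these 1849 (12.3% of genes tested) were higher at 96 h and 1800 (11.9%) were lower, and the median log2 fold change over all genes tested was -0.00. A change of at least 2-fold was seen for 379 higher genes (2.51%) and 485 lower genes (3.22%). Without regard to the test, all 3 libraries at 96 h lay above all 3 at 48 h for 3196 genes (21.2%) and below them for 3115 genes (20.7%). The genes with the largest changes, at 5 CPM or more, are described first, then pathways by role.

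Targets and feedback inhibitors of ERK signalling led the rise. Spry4, a Sprouty protein that restrains receptor signalling to ERK, lies on GRCm39 chromosome 18, 38719300 to 38734400, and measured 0.549, 0.904 and 0.956 CPM at 48 h and 22.3, 21.7 and 22.2 CPM at 96 h (log2 fold change 4.73, SE 0.24, adjusted p = 7.69e-22). All 3 late libraries were above 20 CPM and all 3 early ones below 1 CPM, but the level stayed far under that of untreated cells, 289 CPM (SD 9.29, n = 3). Etv4, an ETS transcription factor induced by FGF and ERK, lies on chromosome 11, 101660573 to 101677963, and measured 2.74, 4.91 and 6.88 CPM at 48 h and 76.0, 63.7 and 70.6 CPM at 96 h (log2 fold change 3.86, SE 0.17, adjusted p = 1.02e-23), against 310.2 CPM (SD 10.5, n = 3) at 0 h. Dusp6, the cytoplasmic phosphatase that removes phosphate from ERK, measured 3.66, 3.75 and 3.06 CPM at 48 h and 25.8, 25.2 and 26.1 CPM at 96 h (log2 fold change 2.86, SE 0.16, adjusted p = 3.39e-20), against 198 CPM (SD 9.70, n = 3) at 0 h. The libraries of each time did not overlap for any of these genes.

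In all, 12 of 20 ERK targets tested rose and none fell, with a median log2 fold change of 0.60, or 0.50 with genes at 0 in a group placed at their bound. The background was 12.3% of genes higher. At 24 h against 0 h none of the 20 had risen and 18 had fallen, against 24.5% and 22.2% of all genes. Etv1, another ETS factor, measured 3.47, 6.33 and 5.54 CPM at 48 h and 23.8, 23.0 and 18.9 CPM at 96 h (log2 fold change 2.05, SE 0.18, adjusted p = 1.29e-12). Spred1 and Spry2, further inhibitors of the pathway, rose by less, with log2 fold changes of 0.64 (SE 0.13) and 0.57 (SE 0.07). Ccnd1, the cyclin D1 gene, measured 87.6, 105 and 99.2 CPM at 48 h and 167, 179 and 181 CPM at 96 h (log2 fold change 0.85, SE 0.091, adjusted p = 2.55e-10). The immediate early gene Fos, at a low level, was not called, at 3.47, 2.33 and 1.72 CPM at 48 h and 1.49, 1.48 and 1.64 CPM at 96 h (adjusted p = 0.169). Egr1, another, had 0 counts in all at 48 h and 3 at 96 h, so no fold is given. So few reads cannot show whether Egr1 shared the rise. Myc, also a member of this list, rose and is described below. Expression in bulk RNA does not tell fewer expressing cells from less RNA per cell, here and throughout.

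**Figure D1:**
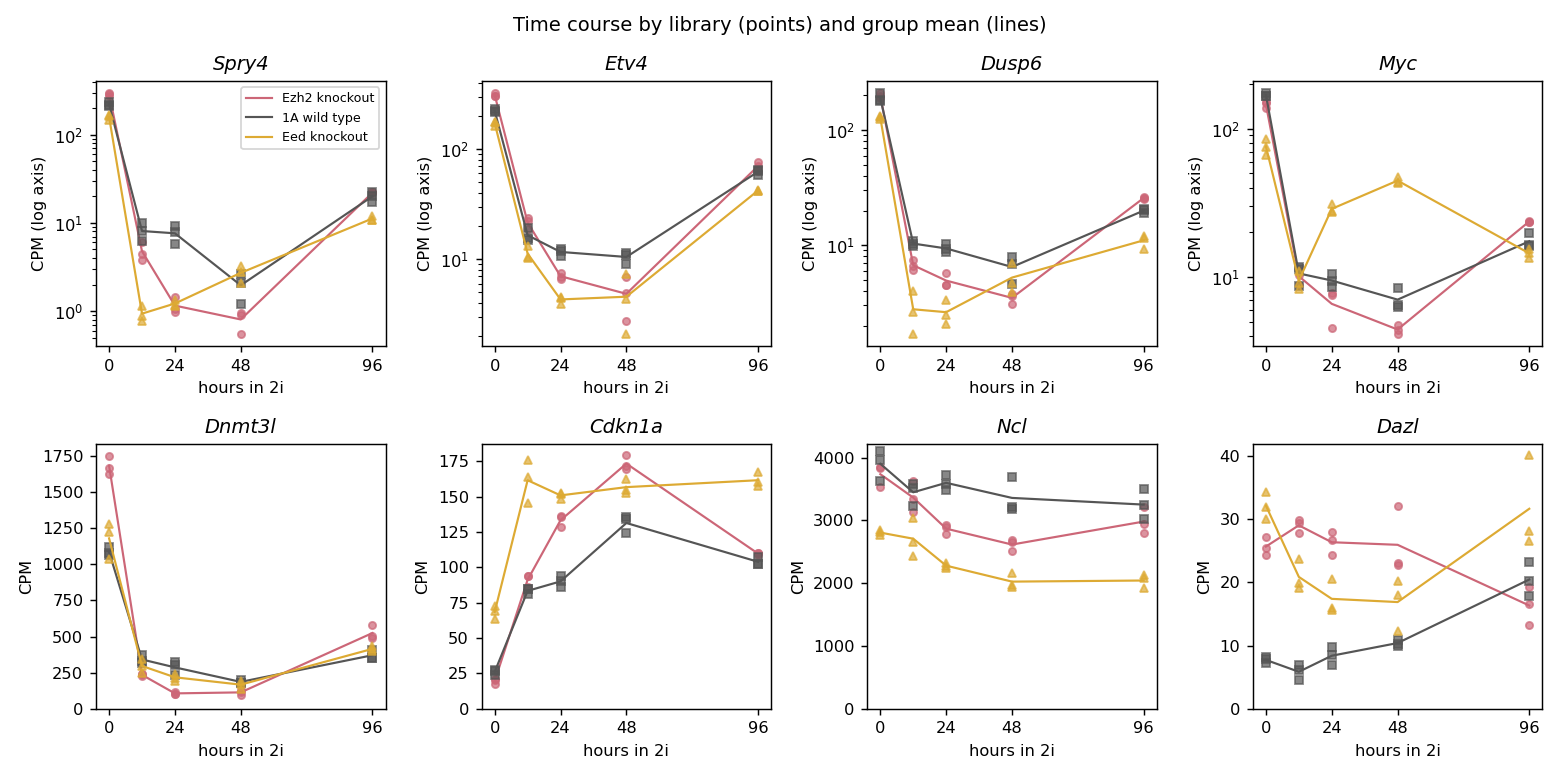
Normalised expression (CPM, vertical axis) of 8 genes against hours of 2i (horizontal axis) in Ezh2 knockout, 1A wild type and Eed knockout. Points are libraries and lines join the means of 3. In the Ezh2 knockout Spry4, Etv4, Dusp6, Myc and Dnmt3l drop within the first day and are higher at 96 h than at 48 h, while Cdkn1a runs the other way. The axes of Spry4, Etv4, Dusp6 and Myc are on a log scale.

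Bmp4, Id1 and Id3 also rose. Bmp4, a ligand of the BMP pathway, measured 0.732, 1.55 and 0.573 CPM at 48 h and 11.9, 10.9 and 10.8 CPM at 96 h (log2 fold change 3.42, SE 0.24, adjusted p = 4.02e-16), with each late library above each early one, against 60.6 CPM (SD 3.78, n = 3) at 0 h. Id1 measured 4.57, 4.13 and 3.25 CPM at 48 h and 11.9, 10.2 and 12.1 CPM at 96 h (log2 fold change 1.51, SE 0.27, adjusted p = 2.12e-05) and Id3 measured 14.6, 19.4 and 21.6 CPM at 48 h and 73.7, 61.5 and 54.1 CPM at 96 h (log2 fold change 1.76, SE 0.15, adjusted p = 1.36e-13). Both encode helix-loop-helix inhibitors that BMP signalling induces. Their relative Id2 went the other way, at 25.6, 19.8 and 25.8 CPM at 48 h and 13.2, 11.5 and 9.28 CPM at 96 h (log2 fold change -1.08, SE 0.20, adjusted p = 4.16e-05). Inhbb, a subunit of activin, and Fst, the secreted inhibitor of activin, rose with log2 fold changes of 1.57 (SE 0.14) and 1.22 (SE 0.17). Over 17 genes of TGF-beta, Nodal and BMP signalling 5 rose and 3 fell, with a median of 0.18. Wnt targets, which GSK3 inhibition holds up, gave 6 higher and 1 lower of 16 tested. Bmp4 and Ccnd1 are among those higher and are also counted in other lists. Over all genes tested 12.3% were higher and 11.9% lower. Sp5, a direct beta-catenin target, measured 3.84, 4.65 and 4.97 CPM at 48 h and 11.1, 10.4 and 11.7 CPM at 96 h (log2 fold change 1.30, SE 0.19, adjusted p = 3.88e-07). Rnf43, which removes Wnt receptors from the membrane, measured 2.56, 2.45 and 2.10 CPM at 48 h and 0.496, 1.48 and 0.764 CPM at 96 h (log2 fold change -1.42, SE 0.40, adjusted p = 0.0059) and was the 1 that fell, a call lost with the RUV-adjusted scores.

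Myc and the genes for building ribosomes rose together. Myc measured 4.39, 4.13 and 4.78 CPM at 48 h and 23.6, 23.5 and 24.0 CPM at 96 h (log2 fold change 2.43, SE 0.15, adjusted p = 1.26e-18), and the libraries of each time were tight and far apart. Of 30 genes for ribosome biogenesis and other Myc targets 19 rose and none fell, with a median of 0.30. Over all genes 12.3% rose and 11.9% fell. At 24 h against 0 h, 28 of the 30 had fallen and none had risen, against 22.2% and 24.5% of all genes. Odc1, which makes polyamines, measured 631, 592 and 597 CPM at 48 h and 1011, 947 and 926 CPM at 96 h (log2 fold change 0.66, SE 0.097, adjusted p = 5.29e-07). Wdr74, needed to mature the large ribosomal subunit, measured 82.1, 89.9 and 83.0 CPM at 48 h and 150.5, 118 and 127 CPM at 96 h (log2 fold change 0.63, SE 0.087, adjusted p = 1.26e-07). Every late library was the higher for both. Bop1, which acts on the same subunit, measured 149, 154 and 174 CPM at 48 h and 234, 222 and 225 CPM at 96 h (log2 fold change 0.51, SE 0.066, adjusted p = 2.89e-08). Heatr1 and Nolc1, which act in transcription and processing of ribosomal RNA, rose with log2 fold changes of 0.51 (SE 0.12) and 0.51 (SE 0.078). Ncl, for nucleolin, measured 2511, 2656 and 2681 CPM at 48 h and 3212, 2937 and 2798 CPM at 96 h and missed the threshold (adjusted p = 0.0522), but was called in a fit of the 6 libraries alone, without the libraries that stood apart from their groups, and without the third replicate at 96 h.

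The ribosomal protein genes themselves did not follow. Of 32 cytosolic ribosomal protein genes none was called in either direction by edgeR (1 at an unadjusted p under 0.05, lower) or by DESeq2, at a median of -0.21. The log2 fold change was below 0 for all 32, from -0.33 to -0.007. Without a filter on low counts 9 fell, in a fit of the 6 libraries alone 13 fell, and 8 fell without the libraries that stood apart (the 12 h libraries of both knockouts, V19 wild type at 48 h and the first 1A wild type library at 24 h, none of them among the 6). Rpl3 measured 1716, 1684 and 1664 CPM at 48 h and 1657, 1356 and 1409.8 CPM at 96 h (adjusted p = 0.304), with the first late library close to the early ones and the other two lower, as for the summed level above. Genes of oxidative phosphorylation gave 1 higher and none lower of 28, at a median of -0.02, against 12.3% and 11.9% of all genes.

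Genes of the entry into S phase rose by small amounts, and inhibitors of the cell cycle fell. Of 22 genes for G1 and S cyclins, kinases and licensing factors 12 rose and 1 fell, at a median of 0.21. Over all genes 12.3% rose and 11.9% fell. Cdk6, a partner of the D cyclins, measured 19.8, 29.1 and 26.0 CPM at 48 h and 49.4, 59.4 and 56.1 CPM at 96 h (log2 fold change 1.13, SE 0.11, adjusted p = 5.53e-11). Cdc6, which loads the MCM helicase onto origins, measured 112, 111 and 105 CPM at 48 h and 144, 156 and 158 CPM at 96 h (log2 fold change 0.48, SE 0.071, adjusted p = 6.58e-07). Ccne1, for cyclin E1, measured 177, 180.3 and 183 CPM at 48 h and 268, 229.9 and 248 CPM at 96 h (log2 fold change 0.46, SE 0.075, adjusted p = 4.08e-06), and Mcm5, a helicase subunit, measured 626, 647 and 675 CPM at 48 h and 780.2, 773 and 803 CPM at 96 h (log2 fold change 0.27, SE 0.064, adjusted p = 9.83e-04). No library of either time overlapped the other time for these 4 genes. The count of 12 was 6 with no filter on low counts and 6 with the RUV-adjusted scores, and Mcm5 lost its call under both. Genes of mitosis gave 1 higher and 2 lower of 20, under the 12.3% and 11.9% of all genes.

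Promoters of these G1 and S genes are shown for the E2F word in them, 1 of 4 words searched in several of the lists with the changes already known. The others were CACGTG (E-box), CCGGAAGT (ETS) and TGACGTCA (cyclic AMP response). Promoter sequences came from RefSeq (GRCm38.p6, 250 bases before to 50 after the start), a build other than the GRCm39 of the counts, and 11 of the 12 that rose had one. The core of the E2F motif, TCCCGC on either strand, lay in 10 of these 11 genes (90.9%), in 1 of the 6 members with a promoter that did not rise (16.7%), and in 22% of all 27025 genes in the promoter table. The same word lay in 7 of 14 matched ribosome biogenesis genes that rose (50%) and in 5 of 10 matched germline genes that fell (50%). It lay in 2 of 5 matched ERK targets that rose (40%) and in 3 of 7 other members (42.9%). The ETS word lay in 0 of the 5 ERK targets that rose. The E-box lay in 2 of the 14 ribosome biogenesis genes that rose (14.3%) and in 2 of 10 other members (20%). The windows below are 60 bases each, 5′ to 3′ on the strand of the gene, with the core in capitals. They come from chr7:38107491-38107550 (minus strand), chr11:98907986-98908045 (plus strand), chr6:88898892-88898951 (minus strand) and chr8:75109434-75109493 (plus strand).
Ccne1: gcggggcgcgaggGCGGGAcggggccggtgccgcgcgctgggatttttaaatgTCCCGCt
Cdc6: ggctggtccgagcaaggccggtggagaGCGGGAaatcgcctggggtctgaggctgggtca
Mcm2: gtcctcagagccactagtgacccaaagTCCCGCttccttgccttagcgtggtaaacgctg
Mcm5: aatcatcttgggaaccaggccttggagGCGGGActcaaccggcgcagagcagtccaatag
The Ccne1 window holds the core on each strand, and the other windows hold it once. A match of 6 letters is a description of the sequence and not of binding.

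Inhibitors of cyclin-dependent kinases and targets of p53 fell. Cdkn1a, which encodes the kinase inhibitor p21 and is also a p53 target, measured 179, 171 and 169.5 CPM at 48 h and 110.0, 109 and 110.5 CPM at 96 h (log2 fold change -0.66, SE 0.066, adjusted p = 3.60e-11). The 3 late libraries lay within 2 CPM of each other. From 0 to 24 h the same gene had risen (log2 fold change 2.76, SE 0.076). Among 10 cell cycle inhibitors 5 fell and none rose, at a median of -0.45, including Cdkn1b, for p27, at 60.2, 63.4 and 62.7 CPM at 48 h and 37.2, 41.8 and 41.4 CPM at 96 h (log2 fold change -0.63, SE 0.089, adjusted p = 2.44e-07) and Rb1 with a log2 fold change of -0.97 (SE 0.16). Among 19 p53 targets 12 fell and 1 rose, at a median of -0.39, against 11.9% of all genes lower. Pmaip1, the pro-apoptotic protein Noxa, measured 85.04, 66.1 and 77.6 CPM at 48 h and 36.2, 34.1 and 33.7 CPM at 96 h (log2 fold change -1.13, SE 0.14, adjusted p = 6.99e-09). Plk2, Btg2, Ccng1 and Mdm2 fell with log2 fold changes of -0.72, -0.68, -0.49 and -0.42. The median of the cell cycle inhibitors was -0.19 with the RUV-adjusted scores.

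**Figure D2:**
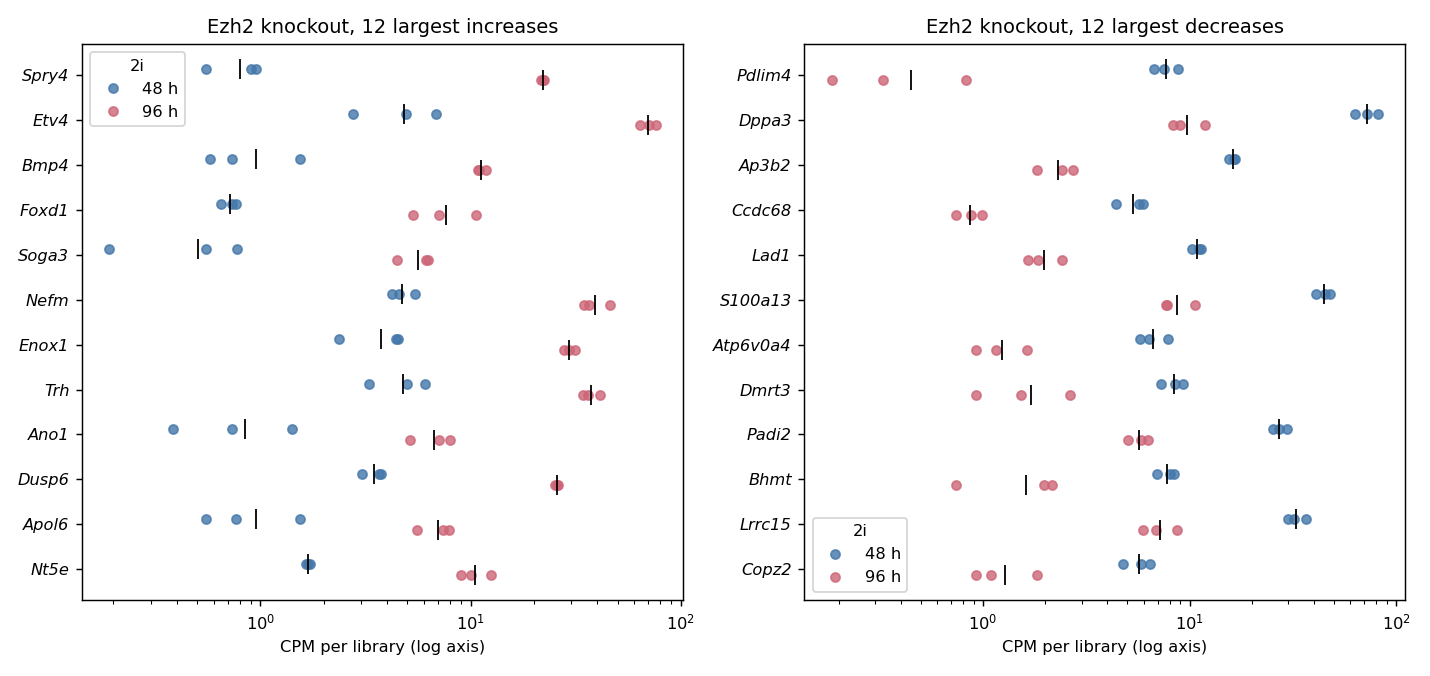
Normalised expression (CPM, log axis) of the 12 genes with the largest rise (left panel) and the 12 with the largest fall (right panel) in the Ezh2 knockout. Points are the 3 libraries at 48 h and the 3 at 96 h, and vertical ticks are group means. Groups without overlap were a condition for naming these genes. Spry4 (log2 fold change 4.73) is at the top of the genes that rose and Pdlim4 (-4.07) at the top of those that fell.

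Pluripotency genes moved in both directions. Of 20 naive pluripotency genes 5 rose and 9 fell, at a median of -0.27, against 12.3% and 11.9% of all genes. Dppa3, also called Stella, a maternal factor of naive cells and germ cells that holds Uhrf1 off chromatin, lay on chromosome 6, 122603383 to 122607230 and measured 81.7, 72.5 and 63.3 CPM at 48 h and 11.9, 8.33 and 8.95 CPM at 96 h (log2 fold change -2.90, SE 0.22, adjusted p = 5.73e-15). Klf4, a naive factor induced by LIF and STAT3, measured 535, 519 and 571 CPM at 48 h and 262, 269 and 301 CPM at 96 h (log2 fold change -0.97, SE 0.14, adjusted p = 9.04e-07), and Nanog measured 1576, 1485 and 1441 CPM at 48 h and 1198, 1129.9 and 1171 CPM at 96 h (log2 fold change -0.36, SE 0.082, adjusted p = 7.02e-04). Esrrb, the main factor downstream of GSK3 inhibition, measured 828, 857 and 874 CPM at 48 h and 828, 869 and 911 CPM at 96 h and was not called (adjusted p = 0.877), nor was Tfcp2l1 at 1097, 1186 and 1153 CPM at 48 h and 764, 950.5 and 970.2 CPM at 96 h (log2 fold change -0.36, adjusted p = 0.0729), although Tfcp2l1 was called lower with no filter, in the 6 libraries alone, with the RUV-adjusted scores and without the libraries that stood apart. These 4 factors of the naive network thus gave 2 falls and 2 results without a call. The largest rise in the list was that of Gbx2, a homeobox factor, at 6.95, 12.1 and 10.7 CPM at 48 h and 46.4, 47.8 and 44.5 CPM at 96 h (log2 fold change 2.19, SE 0.13, adjusted p = 4.47e-19). The count of 5 higher was 2 with the RUV-adjusted scores and 3 without the first replicate at 96 h.

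Of 9 core pluripotency genes 4 rose and 2 fell, at a median of 0.06, against 12.3% and 11.9% of all genes. Utf1, a chromatin-bound factor of undifferentiated cells, measured 80.1, 82.3 and 87.9 CPM at 48 h and 290.1, 263 and 271 CPM at 96 h (log2 fold change 1.72, SE 0.094, adjusted p = 1.75e-20). Lin28a, which blocks maturation of let-7, measured 139, 146 and 139 CPM at 48 h and 295, 301 and 308 CPM at 96 h (log2 fold change 1.09, SE 0.087, adjusted p = 2.38e-14). Pou5f1 measured 1310, 1261 and 1313 CPM at 48 h and 1671, 1493 and 1469 CPM at 96 h, with every late library the higher. Sox2, at 641, 616 and 645 CPM at 48 h and 514, 523 and 521 CPM at 96 h, fell slightly (log2 fold change -0.29, SE 0.055, adjusted p = 7.78e-05). Genes of the formative and primed states gave 7 higher and 3 lower of 18, at a median of 0.33, and they were not of 1 kind. Dnmt3l, Dnmt3b and Etv4 rose, whereas Otx2, the factor that opens formative enhancers, measured 43.7, 35.5 and 33.6 CPM at 48 h and 10.6, 9.26 and 10.5 CPM at 96 h (log2 fold change -1.89, SE 0.16, adjusted p = 1.14e-13) and the tight junction gene Cldn6 measured 35.7, 35.8 and 33.3 CPM at 48 h and 17.8, 14.6 and 14.2 CPM at 96 h (log2 fold change -1.17, SE 0.13, adjusted p = 3.48e-10). Sox3 had no count at 48 h and 17 counts in all at 96 h (1.32, 1.11 and 0.327 CPM), with an adjusted p of 0.0013 and no fold given.

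The DNA methylation machinery gave 6 higher and 1 lower of 19 genes, against 12.3% and 11.9% of all genes. Dnmt3l, the cofactor that stimulates the de novo methyltransferases, measured 94.2, 116 and 131 CPM at 48 h and 579, 505 and 489 CPM at 96 h (log2 fold change 2.21, SE 0.12, adjusted p = 1.18e-20), with all late libraries above all early ones. Dnmt3b, a de novo enzyme, measured 112, 122 and 126 CPM at 48 h and 208, 225 and 225 CPM at 96 h (log2 fold change 0.87, SE 0.11, adjusted p = 7.49e-09), and Uhrf1, which brings Dnmt1 to replicated DNA, measured 429.9, 454 and 477 CPM at 48 h and 632, 703 and 709 CPM at 96 h (log2 fold change 0.59, SE 0.12, adjusted p = 1.09e-04). Dnmt3a at 41.9, 38.6 and 32.7 CPM at 48 h and 38.7, 47.4 and 44.6 CPM at 96 h was not called (adjusted p = 0.194), nor were Dnmt1 (log2 fold change 0.19, adjusted p = 0.308), Tet1 (-0.081, adjusted p = 0.784) and Tet2 (-0.38, adjusted p = 0.239). At 0 h Dnmt3l stood at 1683 CPM (SD 63.1, n = 3) and at 24 h at a mean of 107 CPM.

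Germline genes of the kind silenced by promoter DNA methylation fell in this interval. Of 26 tested 12 fell and 1 rose, at a median of -0.42, against 11.9% of all genes lower and 12.3% higher. On the first day, at 24 h against 0 h, 17 of the 26 were lower and 3 higher, at a median of -0.94. Over all genes tested 22.2% were lower and 24.5% higher on the first day. Dazl, an RNA-binding protein of germ cells, measured 32.0, 23.0 and 22.7 CPM at 48 h and 13.2, 19.3 and 16.5 CPM at 96 h (log2 fold change -0.66, SE 0.15, adjusted p = 9.51e-04). Ddx4, the Vasa helicase, measured 14.4, 15.6 and 16.2 CPM at 48 h and 6.94, 8.52 and 6.11 CPM at 96 h (log2 fold change -1.13, SE 0.15, adjusted p = 1.12e-07). Both are standard markers of the germ line. Mov10l1, the helicase that feeds piRNA production, measured 7.32, 7.62 and 8.22 CPM at 48 h and 4.13, 4.26 and 2.62 CPM at 96 h (log2 fold change -1.12, SE 0.22, adjusted p = 1.22e-04), and Mael, a piRNA pathway protein, measured 11.2, 12.1 and 13.4 CPM at 48 h and 7.27, 9.07 and 8.08 CPM at 96 h (log2 fold change -0.59, SE 0.16, adjusted p = 0.0044). Sycp3, of the synaptonemal complex, measured 3.66, 3.62 and 2.87 CPM at 48 h and 1.65, 0.926 and 1.53 CPM at 96 h (log2 fold change -1.27, SE 0.32, adjusted p = 0.0021), and Tex11, a meiotic crossover factor, measured 7.68, 10.1 and 8.22 CPM at 48 h and 4.96, 4.63 and 4.15 CPM at 96 h (log2 fold change -0.95, SE 0.19, adjusted p = 1.26e-04). For Dazl, Ddx4 and Mov10l1 every late library lay below every early one. The member that rose was Fkbp6, at 24.9, 23.1 and 20.8 CPM at 48 h and 41.6, 35.7 and 41.2 CPM at 96 h (log2 fold change 0.79, SE 0.11, adjusted p = 1.28e-07). With the RUV-adjusted scores 8 members fell, Mael no longer among them, and the median was -0.26.

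Promoters of the germline genes are printed because many hold the same E-box, CACGTG, the word that the E2F6 and MGA repressor complex and Myc family proteins can bind. Of the 12 members that fell 10 had a promoter in the RefSeq table and 7 of these held CACGTG (70%). The word does not separate the members that fell from the others, since 7 of 12 other members tested also held it (58.3%), while it lay in 8.09% of all genes in the table. These windows are drawn as above from GRCm38.p6, with the E-box in capitals, at chr13:112652311-112652370 (minus strand), chr1:166238935-166238994 (minus strand), chr10:88459517-88459576 (plus strand) and chr5:107331089-107331148 (plus strand).
Ddx4: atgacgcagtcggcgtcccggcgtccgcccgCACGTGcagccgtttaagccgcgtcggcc
Mael: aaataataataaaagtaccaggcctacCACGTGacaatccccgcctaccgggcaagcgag
Sycp3: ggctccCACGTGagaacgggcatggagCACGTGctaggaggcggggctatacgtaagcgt
Brdt: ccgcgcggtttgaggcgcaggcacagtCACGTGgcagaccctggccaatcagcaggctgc
The Sycp3 window holds the E-box at 2 places. CACGTG reads the same on both strands, and of the 655 promoters in the table that hold both this word and TCCCGC, 2 had the words overlapping. Brdt, a bromodomain protein of the testis, measured 11.3, 7.88 and 9.75 CPM at 48 h and 4.30, 5.00 and 5.02 CPM at 96 h (log2 fold change -0.99, SE 0.20, adjusted p = 1.66e-04), a call lost with the RUV-adjusted scores.

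Some primitive endoderm genes fell. Of 20 tested 9 fell, none rose and 11 were not called, against 11.9% of all genes lower and 12.3% higher. The median was -0.66, and 5 of the 20 had a change above 0. Gata4, a transcription factor of this lineage, measured 16.8, 20.7 and 20.5 CPM at 48 h and 6.44, 4.63 and 5.13 CPM at 96 h (log2 fold change -1.84, SE 0.19, adjusted p = 1.44e-10). Its late libraries all lay below the early ones. Sox17, which acts beside it, measured 4.21, 5.04 and 4.59 CPM at 48 h and 1.65, 0.926 and 1.31 CPM at 96 h (log2 fold change -1.81, SE 0.34, adjusted p = 4.38e-05), and Lamb1, a laminin of the basement membrane it secretes, measured 90.7, 114 and 107 CPM at 48 h and 42.8, 50.4 and 46.9 CPM at 96 h (log2 fold change -1.16, SE 0.13, adjusted p = 9.39e-10). The summed level of the 5 defining markers (Gata4, Gata6, Sox17, Sox7 and Pdgfra) was 29.1 to 35.1 CPM at 48 h and 10.6 to 12.7 CPM at 96 h, without overlap. None of the 5 was at 0. Sox7 did not fall with the sum, at 0.732, 1.55 and 0.573 CPM at 48 h and 1.32, 1.67 and 0.873 CPM at 96 h. With the RUV-adjusted scores 5 of the 20 fell and the median was -0.34.

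Trophoblast genes gave 6 lower and 2 higher of 15, against 11.9% of all genes lower and 12.3% higher. Gata2 measured 39.7, 37.5 and 38.6 CPM at 48 h and 11.9, 12.8 and 10.9 CPM at 96 h (log2 fold change -1.71, SE 0.11, adjusted p = 3.77e-17) and Tfap2c measured 127, 111 and 116 CPM at 48 h and 45.3, 52.6 and 51.3 CPM at 96 h (log2 fold change -1.24, SE 0.089, adjusted p = 3.90e-16), and both encode transcription factors of the trophoblast. Eomes, which trophoblast shares with mesendoderm, measured 12.3, 10.7 and 13.2 CPM at 48 h and 22.3, 17.6 and 21.3 CPM at 96 h (log2 fold change 0.78, SE 0.16, adjusted p = 1.53e-04). The 5 defining trophoblast markers together went from 47.7 to 54.9 CPM at 48 h to 55.5 to 60.6 CPM at 96 h, opposite to the list's median of -0.29. That median was 0.17 with the RUV-adjusted scores, under which 2 members fell. The summed neural markers overlapped between the times, at 84.9 to 91.2 and 89.9 to 98.5 CPM.

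Developmental regulators that carry both activating and PRC2 marks in embryonic stem cells, often called bivalent, gave 9 lower and 2 higher of 54, with 43 not called, against 11.9% of all genes lower and 12.3% higher. Their median was -0.53, or -0.45 with genes at 0 in a group at their bound, and -0.08 with the RUV-adjusted scores, under which 5 fell. Tbx5, a cardiac and limb factor, measured 1.46, 1.81 and 2.48 CPM at 48 h and 0.165, 0.185 and 0 CPM at 96 h (log2 fold change -4.03, SE 0.71, adjusted p = 2.59e-05). Evx1, a homeobox factor of the primitive streak, measured 0.183, 0.129 and 0.191 CPM at 48 h and 2.31, 1.67 and 1.64 CPM at 96 h (log2 fold change 3.35, SE 0.65, adjusted p = 9.51e-05). These are 35 and 2 counts in all for Tbx5 and 3 and 38 for Evx1, so the sizes rest on few reads. Of 29 Hox genes 4 rose and 2 fell, among them Hoxc8 at 0.549, 0.258 and 1.34 CPM at 48 h and 2.15, 1.67 and 1.31 CPM at 96 h (log2 fold change 1.31, SE 0.48, adjusted p = 0.0387), where the libraries of the times overlapped and the call was lost with DESeq2, with no filter on low counts and without either of the first 2 replicates at 48 h or at 96 h. Without the first or the second replicate at 48 h, 2 Hox genes rose.

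Epithelial genes fell and Vim rose. Of 22 epithelial and adhesion genes 10 fell, at a median of -0.35, and Vim was the 1 that rose. Over all genes 11.9% fell and 12.3% rose. Cdh1, for E-cadherin, measured 475, 449.9 and 468 CPM at 48 h and 299.5, 320.1 and 327 CPM at 96 h (log2 fold change -0.56, SE 0.076, adjusted p = 1.15e-07), and Epcam, another surface adhesion molecule, measured 181, 181 and 192 CPM at 48 h and 134, 113 and 114 CPM at 96 h (log2 fold change -0.61, SE 0.096, adjusted p = 2.23e-06). The claudins Cldn3, Cldn4 and Cldn7 had log2 fold changes of -1.25, -0.61 and -1.16. Vim, for the intermediate filament vimentin, measured 81.4, 78.4 and 92.9 CPM at 48 h and 278, 236 and 251 CPM at 96 h (log2 fold change 1.60, SE 0.093, adjusted p = 1.90e-19). Summed fibroblast and feeder markers were also higher at 96 h, at the levels given above, and their part in the rise of Vim was not tested. Acta2 was the largest member of that sum, at 3.84, 4.78 and 4.59 CPM at 48 h and 8.59, 7.04 and 6.33 CPM at 96 h. Col1a1 measured 0.732, 0.388 and 1.15 CPM at 48 h and 1.65, 1.67 and 1.31 CPM at 96 h, and Thy1 overlapped between the times. The median of the list was -0.12 with the RUV-adjusted scores.

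Glycolysis and hypoxia genes fell. Of 22 genes for glycolysis and glucose uptake 13 fell and 2 rose, at a median of -0.27. Over all genes 11.9% fell and 12.3% rose. Slc16a3, the lactate exporter MCT4, measured 51.9, 45.2 and 41.7 CPM at 48 h and 15.4, 19.07 and 17.8 CPM at 96 h (log2 fold change -1.41, SE 0.17, adjusted p = 7.50e-09). Ldha, which makes the lactate, measured 1325, 1126 and 1107 CPM at 48 h and 781, 738 and 764 CPM at 96 h (log2 fold change -0.64, SE 0.093, adjusted p = 4.58e-07), and Pgk1, a core glycolytic kinase, measured 266, 237 and 224 CPM at 48 h and 170.3, 154 and 158 CPM at 96 h (log2 fold change -0.60, SE 0.092, adjusted p = 1.77e-06). The late libraries were the lower ones for all 3 of these genes. The members that rose were Eno3, an enolase, at 20.3, 26.0 and 28.1 CPM at 48 h and 47.6, 43.3 and 41.4 CPM at 96 h (log2 fold change 0.83, SE 0.11, adjusted p = 6.34e-08) and Pdk1, which closes entry to the mitochondrial pathway, with a log2 fold change of 0.48 (SE 0.13) that was not called with the RUV-adjusted scores. Of 19 hypoxia response genes, some of them shared with the glycolysis list, 7 fell and 1 rose. Bnip3, a mitophagy receptor, measured 24.7, 17.8 and 15.5 CPM at 48 h and 10.9, 9.81 and 9.82 CPM at 96 h (log2 fold change -0.92, SE 0.21, adjusted p = 5.87e-04). The count of 7 was 11 in a fit of the 6 libraries alone and 12 without the libraries that stood apart.

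Other metabolic groups moved less. Cholesterol synthesis gave 6 higher and none lower of 25, with Ebp, a sterol isomerase, at 46.6, 42.4 and 36.1 CPM at 48 h and 73.5, 65.0 and 60.4 CPM at 96 h (log2 fold change 0.66, SE 0.12, adjusted p = 2.60e-05), and the count was 3 without the second replicate at 48 h. Fatty acid synthesis gave 3 lower and none higher of 14. Lysosome and autophagy genes gave 7 lower and 2 higher of 31, with Glb1, a lysosomal galactosidase, at 149, 139 and 132 CPM at 48 h and 75.8, 82.8 and 76.8 CPM at 96 h (log2 fold change -0.84, SE 0.073, adjusted p = 5.55e-13). The 7 became 4 without a filter on low counts and without the first or second replicate at 48 h or the third at 96 h. ATF4 targets gave 4 lower and 2 higher of 23, NRF2 targets 2 higher and 1 lower of 17, and heat shock genes 5 higher and 2 lower of 20. The background was 12.3% of all genes higher and 11.9% lower. The ATF4 and NRF2 counts lay near those shares and are not read as a change of these groups.

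Imprinted genes moved in both directions. Of 43 tested 9 rose and 10 fell, at a median of 0.02, against 12.3% of all genes higher and 11.9% lower. Among those that rose, Meg3, Rian, Mirg and Rtl1 lie together in the Dlk1-Dio3 region. Meg3 measured 14.1, 13.6 and 14.7 CPM at 48 h and 42.5, 37.8 and 35.7 CPM at 96 h (log2 fold change 1.45, SE 0.14, adjusted p = 2.33e-11) and Rian measured 28.0, 30.1 and 30.6 CPM at 48 h and 55.5, 59.4 and 56.5 CPM at 96 h (log2 fold change 0.95, SE 0.13, adjusted p = 6.50e-08). Both were higher in every late library. Igf2, a growth factor expressed from the paternal copy, measured 169, 183 and 142 CPM at 48 h and 55.2, 61.5 and 62.5 CPM at 96 h (log2 fold change -1.46, SE 0.13, adjusted p = 2.50e-13), and Peg10, a retroelement-derived gene, measured 201, 200.2 and 187 CPM at 48 h and 88.4, 117 and 108 CPM at 96 h (log2 fold change -0.91, SE 0.14, adjusted p = 1.01e-06). Rtl1 overlaps an antisense transcript and the strand setting of the counting is not given, so its value (log2 fold change 1.43) cannot be assigned to a strand, and its call was lost with the RUV-adjusted scores and without the first replicate at 48 h, or the first or the third at 96 h. The count of 9 was 5 without the second replicate at 48 h and 5 without the first at 96 h.

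Interferon and viral RNA sensing genes gave 6 higher and 4 lower of 29, against 12.3% of all genes higher and 11.9% lower. Ddx58, the RNA sensor RIG-I, measured 10.1, 11.5 and 13.2 CPM at 48 h and 57.8, 55.2 and 60.1 CPM at 96 h (log2 fold change 2.32, SE 0.12, adjusted p = 7.95e-22). Isg15, Usp18 and Ifit1, also called higher, were all under 1 CPM in each library, with Ifit1 at 0 counts in all at 48 h and 9 at 96 h, and each lost its call when single libraries were left out. B2m, part of the class I antigen-presenting complex, measured 35.5, 37.6 and 30.4 CPM at 48 h and 20.8, 16.1 and 17.8 CPM at 96 h (log2 fold change -0.92, SE 0.19, adjusted p = 2.02e-04). The count of 6 fell to 3 without the first or second replicate at 48 h, without the first at 96 h, and in a fit of the 6 libraries alone. Genes of the 2-cell-like state gave no call in 12 tested by edgeR or DESeq2, and 0 at an unadjusted p under 0.05 by edgeR. Of these 12, 8 had no count at 48 h or at 96 h, so the lack of calls cannot show that they did not change.

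The remaining genes with the largest rises belonged to no common list. Foxd1, a forkhead factor, measured 0.732, 0.646 and 0.765 CPM at 48 h and 10.6, 7.04 and 5.35 CPM at 96 h (log2 fold change 3.36, SE 0.32, adjusted p = 6.43e-12). Nefm, a neurofilament subunit, measured 4.21, 5.43 and 4.59 CPM at 48 h and 46.3, 34.8 and 36.6 CPM at 96 h (log2 fold change 3.02, SE 0.19, adjusted p = 1.93e-18), and Trh, the precursor of thyrotropin-releasing hormone, measured 3.29, 6.07 and 4.97 CPM at 48 h and 41.5, 34.2 and 36.3 CPM at 96 h (log2 fold change 2.93, SE 0.18, adjusted p = 1.98e-18). Enox1, a surface oxidase, measured 2.38, 4.52 and 4.40 CPM at 48 h and 27.8, 31.5 and 29.4 CPM at 96 h (log2 fold change 2.94, SE 0.14, adjusted p = 3.59e-22). Soga3, Ano1, Apol6 and Nt5e, the last encoding the surface nucleotidase CD73, rose with log2 fold changes of 3.34, 2.87, 2.76 and 2.61, each from under 2 CPM in every library at 48 h. Their late libraries did not overlap the early ones, which the rule for naming them required.

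Pdlim4, an actin-associated LIM protein, had the largest fall among genes at 5 CPM or more. It lay on chromosome 11, 53945754 to 53959858 and measured 8.78, 7.49 and 6.69 CPM at 48 h and 0.826, 0.185 and 0.327 CPM at 96 h (log2 fold change -4.07, SE 0.42, adjusted p = 8.71e-11). Ap3b2, a vesicle coat subunit, measured 16.5, 15.5 and 16.6 CPM at 48 h and 1.82, 2.41 and 2.73 CPM at 96 h (log2 fold change -2.76, SE 0.18, adjusted p = 1.20e-17). Bhmt, which remethylates homocysteine, measured 8.41, 6.98 and 8.03 CPM at 48 h and 2.15, 0.741 and 1.96 CPM at 96 h (log2 fold change -2.18, SE 0.28, adjusted p = 3.32e-08), and Padi2, a peptidylarginine deiminase, measured 29.4, 25.2 and 26.9 CPM at 48 h and 5.78, 6.29 and 5.02 CPM at 96 h (log2 fold change -2.27, SE 0.19, adjusted p = 1.45e-13). Dmrt3, a DM domain transcription factor, and Atp6v0a4, a proton pump subunit, fell with log2 fold changes of -2.29 (SE 0.25) and -2.33 (SE 0.35). The rest of the 12 largest falls were Ccdc68, Lad1, S100a13, Lrrc15 and Copz2, between -2.59 and -2.15.

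Many of these late changes ran against the first day of the same line. At 24 h against 0 h 7039 genes (46.7%) were called, 3692 higher (24.5%) and 3347 lower (22.2%). Of the 1849 genes higher at 96 h against 48 h, 1111 (60.1%) had been lower at 24 h and 137 had been higher. Of the 1800 genes lower at 96 h, 1159 (64.4%) had been higher at 24 h and 143 had been lower. Across the 15083 genes Pearson's r between the early and the late log2 fold change was -0.39 and Spearman's rho -0.42, from different libraries of the same line, and genes are not independent replicates. At 96 h the means of Spry4, Etv4 and Dusp6 were still below their means at 0 h given above.

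**Figure D3:**
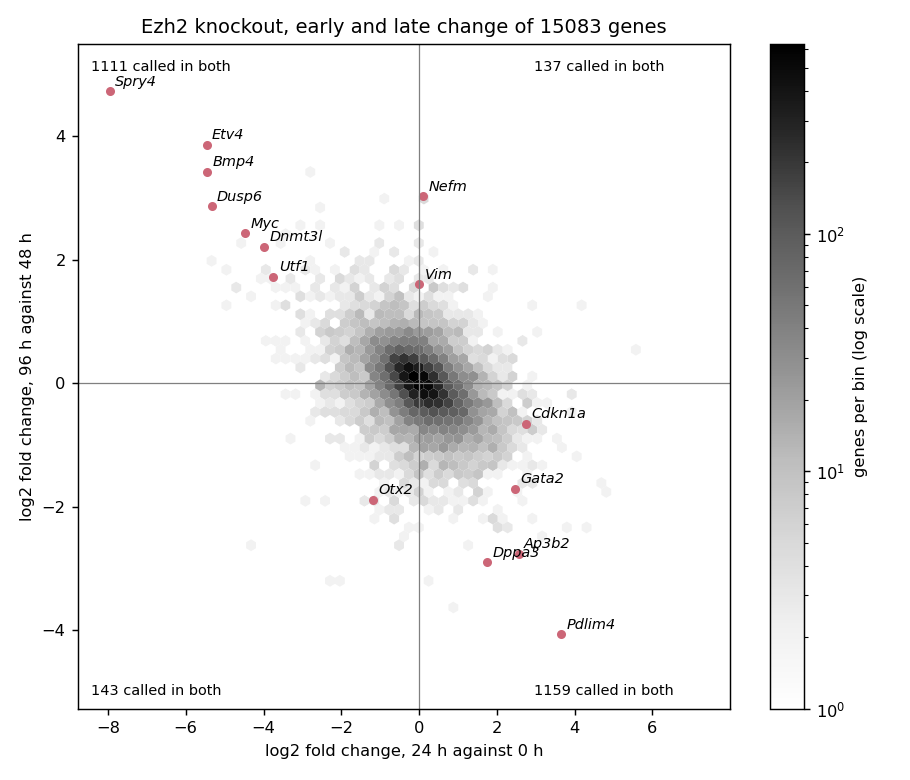
Log2 fold change at 96 h against 48 h (vertical axis) plotted on log2 fold change at 24 h against 0 h (horizontal axis) in the Ezh2 knockout, as a density of 15083 genes, with 15 genes marked. Corner numbers are genes called in both comparisons: 1111 lower early and higher late and 1159 higher early and lower late, against 137 and 143 with the same sign. Values beyond the axes are drawn at their edge.

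The 1A wild type and the Eed knockout were read over the same interval. In 1A wild type 4751 genes (31.5%) were called, 2446 higher (16.2%) and 2305 lower (15.3%), and in the Eed knockout 5325 (35.3%), 2544 higher (16.9%) and 2781 lower (18.4%). The 792 genes higher in both the Ezh2 knockout and the wild type made up 42.8% of the former's list and 32.4% of the latter's, and the 723 lower in both made up 40.2% and 31.4%. With the Eed knockout the shared lists held 907 higher genes (49.1% and 35.7%) and 822 lower genes (45.7% and 29.6%). Genes called in opposite directions numbered 39 and 69 against wild type and 101 and 137 against the Eed knockout. Across genes r was 0.39 with wild type and 0.37 with the Eed knockout.

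The difference between the lines was then tested as an interaction. Against wild type 1778 genes (11.8%) changed by a different amount, 792 of them (5.25%) more upward in the Ezh2 knockout and 986 (6.54%) more downward. This count moved with single libraries: it was 719 without the first replicate of the Ezh2 knockout at 96 h, 824 without the first of the wild type at 96 h, 1163 without the second of the Ezh2 knockout at 48 h, and 1048 or 1140 without the first or the second of the wild type at 48 h. Against the Eed knockout 2021 genes (13.4%) differed, 968 (6.42%) more upward and 1053 (6.98%) more downward. With the RUV-adjusted scores the 1929 genes called against the Eed knockout split into 575 higher and 1354 lower, or 29.8% higher against 47.9% in the count test. The differences from wild type and from the Eed knockout use the same 6 libraries of the Ezh2 knockout, so they are not independent of each other. Counts of list members in these differences, given below, were not recomputed under other settings, except for ribosomal proteins with DESeq2.

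Of the 20 ERK targets 11 were higher and 1 lower at 96 h in wild type, and 11 were higher and 4 lower in the Eed knockout, against 12 higher and none lower in the Ezh2 knockout. Over all genes 16.2% were higher and 15.3% lower in wild type, and 16.9% and 18.4% in the Eed knockout. The late log2 fold change of Spry4 was 3.35 in wild type and 2.06 in the Eed knockout against 4.73 in the Ezh2 knockout. Both differences passed the test (adjusted p = 0.031 and 1.92e-06). Spry4 in wild type went from 1.1996, 2.604 and 2.08 to 20.4, 22.5 and 17.3 CPM. In the Eed knockout it went from 3.28, 2.07 and 2.79 to 11.97, 10.8 and 10.9 CPM. The Ezh2 knockout lay below both lines at 48 h (0.549, 0.904 and 0.956 CPM), where its level rests on few reads. At 96 h (22.3, 21.7 and 22.2 CPM) it overlapped wild type and lay above the Eed knockout. Of the 20 targets 6 moved more upward in the Ezh2 knockout than in wild type and none more downward. The shares over all genes were 5.25% and 6.54%. Against the Eed knockout 5 moved more upward and 3 more downward, where the shares over all genes were 6.42% and 6.98%. Bmp4 in wild type went from 4.11, 3.25 and 2.91 to 8.60, 10.1 and 9.36 CPM and in the Eed knockout from 4.92, 3.51 and 4.88 to 7.93, 6.71 and 7.001 CPM, and its change in the Ezh2 knockout exceeded both (difference 2.03, SE 0.36, adjusted p = 1.88e-04 against wild type; 2.703, SE 0.34, adjusted p = 7.56e-08 against Eed knockout).

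Myc differed most from the Eed knockout, where it measured 47.0, 43.4 and 43.6 CPM at 48 h and 13.4, 14.4 and 15.5 CPM at 96 h and fell, while it rose in the Ezh2 knockout (difference 4.05, SE 0.19, adjusted p = 7.44e-23). In wild type it rose with a log2 fold change of 1.27. Ribosome biogenesis genes gave 5 higher and 4 lower of 30 in wild type, at a median of 0.01, against 16.2% and 15.3% of all genes. By the test of the difference 16 of the 30 moved more upward in the Ezh2 knockout than in wild type. The share over all genes was 5.25%. In the Eed knockout 23 of the 30 rose, against 16.9% of all genes, and none fell, so these genes and Myc did not move alike there. All 32 ribosomal protein genes fell in wild type, at a median of -0.71, but no gene of the list passed the test of the difference from the Ezh2 knockout with edgeR or DESeq2. At an unadjusted p under 0.05 by edgeR, 22 of the 32 had a less downward change in the Ezh2 knockout than in wild type.

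Some germline and p53 genes also differed between the lines. Germline genes gave 11 higher and 2 lower of 26 in wild type, at a median of 0.36, against 16.2% and 15.3% of all genes. Of the 26, 11 moved more downward in the Ezh2 knockout than in wild type and none more upward. The shares over all genes were 6.54% and 5.25%. In the Eed knockout 8 rose and 8 fell, at a median of 0.03, against 16.9% and 18.4% of all genes. Dazl rose in wild type and in the Eed knockout (log2 fold changes 0.96 and 0.88) and fell in the Ezh2 knockout, with differences of -1.62 (SE 0.24, adjusted p = 5.87e-06) and -1.55 (SE 0.22, adjusted p = 7.01e-07). Dazl in wild type went from 10.3, 10.9 and 9.98 to 20.2, 23.3 and 17.8 CPM. In the Eed knockout it went from 18.0, 20.2 and 12.3 to 26.6, 40.1 and 28.1 CPM. The Ezh2 knockout lay above both lines at 48 h (32.0, 23.0 and 22.7 CPM). At 96 h (13.2, 19.3 and 16.5 CPM) it overlapped wild type. Against the Eed knockout 8 germline genes moved more downward and none more upward, where the shares over all genes were 6.98% and 6.42%. Of 19 p53 targets 3 rose and 3 fell in wild type, and 8 moved more downward in the Ezh2 knockout than there. In the Eed knockout 9 fell and 1 rose, at a median of -0.20, and 3 of the 19 moved more downward in the Ezh2 knockout than there. Naive pluripotency genes differed mainly from the Eed knockout, in which 14 of 20 rose and 1 fell. The change of 13 of the 20 was more downward in the Ezh2 knockout and of none more upward.

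**Figure D4:**
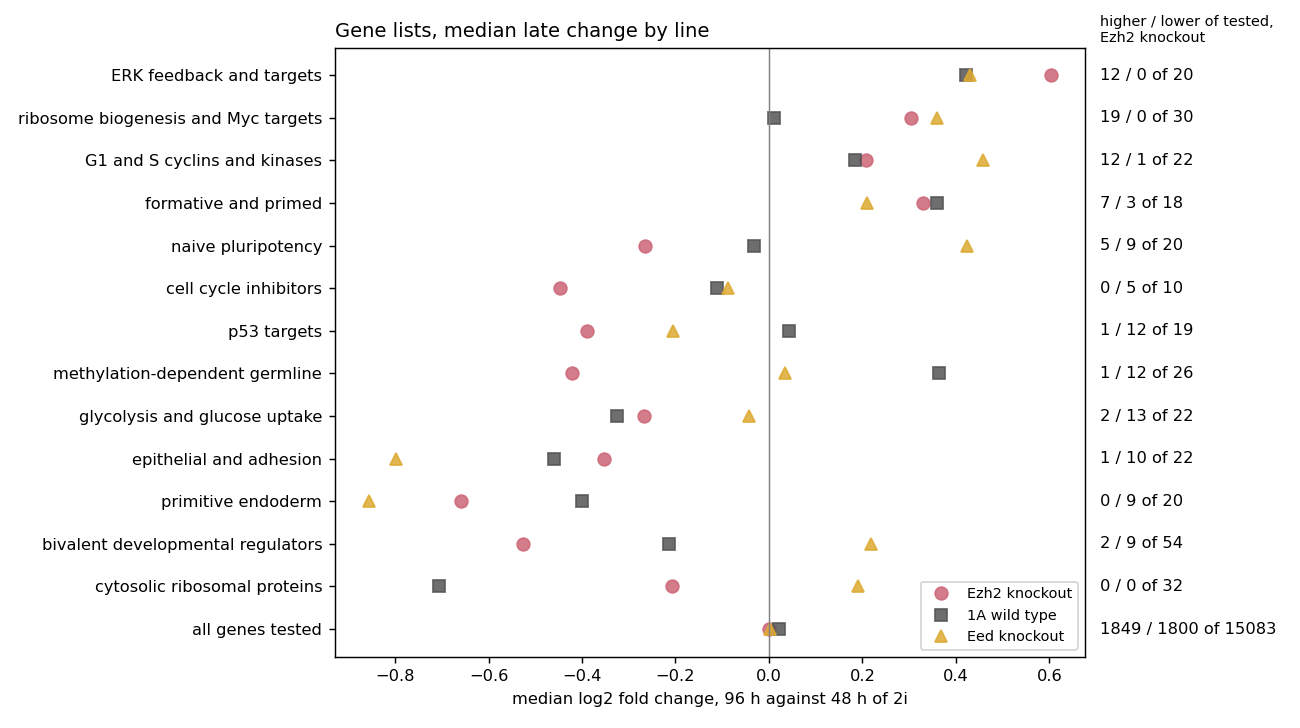
Median log2 fold change at 96 h against 48 h (horizontal axis) of 13 gene lists and of all genes tested, in Ezh2 knockout (circles), 1A wild type (squares) and Eed knockout (triangles), with no error shown. Numbers at the right are members called higher and lower of those tested in the Ezh2 knockout. The germline median is -0.42 in the Ezh2 knockout and 0.36 in wild type, and the ribosomal protein median is -0.21 and -0.71.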

How the data were processed

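RNA was extracted with TRIzol, selected by poly(A), prepared with the NEBNext Ultra II kit and sequenced as single reads, per the labels' protocols. The authors deposited raw read counts for each gene. The submitters' processing notes name STAR 2.7.10b, featureCounts 2.0.3 and the build GRCm39. The authors also deposited RUV-normalized values, treated here as scores because the settings behind them are not given in the sources used here. Strand setting is likewise not given, so overlapping and antisense genes cannot be told apart.

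All 60 libraries entered 1 edgeR 4.0.16 model (R 4.3.3) with a mean for each of 20 groups, TMM factors and filterByExpr (minimum count 10, minimum total 15), which left 15083 of 50559 genes, 15098 of the rest having no count, and 40 residual degrees of freedom. Quasi-likelihood tests were adjusted by Benjamini-Hochberg over all genes tested and called under 0.05. Standard errors are the absolute log2 fold change over the square root of F. Levels are CPM with TMM factors and are not scaled for gene length, so they are compared within a gene only. The model was tested on simulated data. A bound for a gene at 0 in a group uses 3 counts over the group.

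Named genes were Ezh2, Eed and Suz12, then per direction the 12 largest changes (6 for each difference between lines) among called genes with at least 5 CPM in the higher group, and without overlap in the main comparison, leaving out predicted genes, RIKEN clones and pseudogenes, and then up to 5 called members per list by adjusted p. List members used in describing a pathway were given whether called or not. For the differences between lines, the 5 CPM had to be reached in the higher of the 2 groups of the Ezh2 knockout, a reading set after the values were seen, and 1 gene that met the rule is not reported here. The members and lists were chosen with earlier results of these data known, and some genes belong to several lists. Alternatives were DESeq2 1.42.0, RLE factors, a replicate block, the compared groups alone, no filter on low counts, a minimum mean of 1 CPM, limma 3.58.1 on log2 of the RUV score plus 1, and each library left out. A fit without libraries that stood apart was added after seeing the data. Promoters came from RefSeq (GRCm38.p6) and were searched on both strands.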

Additional observations from a re-analysis of the deposited data

Results flagged for a closer look

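Results here are genes whose change from 48 to 96 h differed between the Ezh2 knockout and another line by edgeR's interaction test, among the 6 largest differences in each direction and for each line. Differences are the log2 fold change in the Ezh2 knockout minus that in the other line, and no explanation was tested.

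Against 1A wild type the change was more upward for Trh (difference 2.75, adjusted p = 4.37e-11), the Wnt target Sp5 (2.23, 8.46e-08), Bmp4 (2.03, 1.88e-04), the cytokine receptor subunit Cntfr (1.93, 6.66e-04) and the glycosyltransferase B3gnt7 (1.83, 1.41e-10). Trh measured 23.8, 21.0 and 25.0 CPM at 48 h and 26.9, 27.5 and 23.3 CPM at 96 h in wild type, where its libraries overlapped, against 3.29, 6.07 and 4.97 CPM at 48 h and 41.5, 34.2 and 36.3 CPM at 96 h in the Ezh2 knockout. Sp5 measured 14.4, 9.28 and 12.5 CPM and then 6.21, 7.44 and 5.14 CPM in wild type, against 3.84, 4.65 and 4.97 CPM at 48 h and 11.1, 10.4 and 11.7 CPM at 96 h in the Ezh2 knockout.

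The change was more downward for A2m (-2.50, 0.0031), the filament protein Sync (-2.17, 2.27e-05), the cholinesterase Bche (-2.17, 0.0034), the homeobox factors Meis2 (-2.13, 4.38e-09) and Hoxc12 (-2.07, 0.0074), and Ablim1 (-2.05, 5.16e-06). Meis2 measured 51.6, 49.9 and 48.7 CPM at 48 h and 55.5, 49.99 and 60.8 CPM at 96 h in the Ezh2 knockout and 2.91, 3.25 and 3.33 and then 15.8, 14.7 and 15.6 CPM in wild type. The difference in Hoxc12 was not called with the RUV-adjusted scores.

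Against the Eed knockout the change was more upward for Myc (4.05, 7.44e-23), Bmp4 (2.703, 7.56e-08), Spry4 (2.67, 1.92e-06), Soga3 (2.64, 3.45e-04), Foxd1 (2.46, 6.24e-06) and Id1 (2.22, 3.42e-06). Id1 measured 16.2, 24.7 and 20.2 CPM at 48 h and 11.04, 13.4 and 13.2 CPM at 96 h in the Eed knockout, against 4.57, 4.13 and 3.25 CPM at 48 h and 11.9, 10.2 and 12.1 CPM at 96 h in the Ezh2 knockout.

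It was more downward for Mobp (-3.38, 7.52e-05), Pdlim4 (-3.03, 2.07e-05), the meiosis gene Stra8 (-2.63, 3.10e-08), Atp6v0a4 (-2.40, 4.88e-05), the gonadal factor Dmrt1 (-2.38, 1.52e-11) and the arginine methyltransferase Prmt8 (-2.38, 1.41e-04). Stra8 measured 22.9, 21.1 and 21.0 CPM at 48 h and 7.27, 6.29 and 5.68 CPM at 96 h in the Ezh2 knockout and 2.73, 3.67 and 2.79 and then 5.75, 4.81 and 6.44 CPM in the Eed knockout. Dmrt1 measured 21.8, 18.9 and 21.4 CPM at 48 h and 3.47, 3.89 and 6.77 CPM at 96 h in the Ezh2 knockout and 10.9, 13.9 and 9.98 and then 15.4, 14.6 and 14.6 CPM in the Eed knockout.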

How the results depend on the processing

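The 3649 genes called in the Ezh2 knockout numbered 2835 (RUV scores) to 4635 (without the libraries that stood apart) under other settings, and 2704 to 3156 with 1 library left out. The difference from wild type moved furthest. Its 1778 genes became 3453 when only the 4 groups compared were fitted and 3766 without the libraries that stood apart, and 719 to 1758 with 1 library left out. The difference from the Eed knockout gave 2021 genes, and 1598 to 1964 with 1 library left out. Leaving out 1 library gave 3273 to 4439 genes in wild type, 4388 to 4648 in the Eed knockout and 6248 to 6463 at 24 h against 0 h. The causes were not tested.

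No pairing by replicate number was visible in the Ezh2 knockout. Deviations of same-numbered libraries at 48 and 96 h correlated there at r of 0.04, -0.01 and -0.00. The values were -0.03, -0.08 and -0.10 in 1A wild type and 0.05, 0.14 and -0.03 in the Eed knockout. Such correlations cannot show whether the cultures were paired. With the replicate block 3605 genes were called in the Ezh2 knockout, 1764 and 2005 in the differences from wild type and from the Eed knockout, 4664 in wild type, 5297 in the Eed knockout and 7028 at 24 h against 0 h. Of 228 named gene results the block ended 1 call, that of Isg15. None reversed in any setting. The RUV scores ended 32 calls and added 1, no filter ended 17 and added 2, DESeq2 ended 5, RLE factors ended 4, and leaving out 1 library ended at least 1 call for 37 of them. Genes under 1 CPM rest on few reads, so differences there may not be detectable at this depth.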
